A study of Mus musculus with 16 samples.

Results

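The nuclear genes of respiratory complex I were followed in mouse Th17 cells, the helper T cells that make IL-17, under a knockout of PDH and under sodium acetate. The members were all protein-coding genes whose symbol starts with Ndufa, Ndufb, Ndufc, Ndufs, Ndufv or Ndufaf, with pseudogenes left out. They came to 46 of the 15571 genes in the table, and all 46 passed the filter on low counts. RefSeq and GENCODE differ on 2 genes. Ndufb1 (ENSMUSG00000113902), also listed as Ndufb1-ps, is protein-coding in RefSeq and a bidirectional promoter lncRNA in GENCODE, and was kept. Ndufb4c, protein-coding in RefSeq and a processed pseudogene in GENCODE, was left out. Reads may be divided between its transcript and that of the near-identical Ndufb4, so the values of Ndufb4 are uncertain. Ndufa4l2 and Ndufb4b were not analysed here.

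PDH makes acetyl-CoA from pyruvate in mitochondria, and cells can also make it from acetate. Naive CD4+ T cells from spleen and lymph nodes of PDHfl/fl mice, either without Cre (WT) or with CD4 Cre (KO), were cultured for 3 days under Th17 conditions. The wells held 30 ng/mL of IL-6 and 2 ng/mL of TGFβ, with antibodies to CD3 (coated on the plate) and IFNγ, each 5 µg/mL, and to CD28, 1 µg/mL. The 4 groups were WT and KO, each untreated or with acetate, of 4 libraries each, and acetate meant 10 mM sodium acetate throughout the culture. The sample titles write the floxed gene as PHD and the culture protocol as PDH, and the protocol's spelling is used here. All 4 groups carried the loxP-flanked alleles. CD4 Cre acts in all T cells that have passed through the CD4-expressing stage of thymic development. No group controlled for Cre or for sodium alone, so their part cannot be told apart from that of the knockout and of acetate. The labels name no animals or cultures behind the libraries, so each p-value measures the spread between these libraries, which may be technical. The mice's age was not given in the sources used here.

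Complex I takes electrons from NADH, hands them to ubiquinone and pumps protons across the inner mitochondrial membrane. Its N module oxidises NADH, its Q module reduces ubiquinone, and its proximal and distal membrane arms do the pumping. Core subunits shared with bacteria do the chemistry, and supernumerary subunits surround them. Of the core subunits, 7 are encoded in mitochondrial DNA, and assembly factors join the modules without staying in the finished enzyme. Activated T cells use the respiratory chain beside glycolysis, and NADH from PDH and the citric acid cycle is the substrate of complex I. By role, the 46 genes were 10 of the N module, 6 of the Q module, 9 of the proximal arm, 11 of the distal arm, 8 assembly factors named Ndufaf, and Ndufab1 and Ndufa4, whose roles extend outside the complex.

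The promoters of respiratory chain genes are known for binding sites of NRF1 and of the ETS-family factor GABP. RefSeq promoter windows (build GRCm38.p6) were found for 41 of the 46 genes, in 43 windows, and the 250 bases before each start were searched on both strands. The NRF1 motif, GCGC and TGCGC with any 1 base between them, was in 8 of 43 windows (18.6%), from 7 genes, and in 3.74% of all 32851 RefSeq windows. The ETS core CCGGAAG was in 5 of 43 windows (11.6%) and in 6.91% of all. The motifs AAGATGGC of YY1, TCAAGGTCA of ERRα and TGATGCAA of ATF4 with CEBP were in 0 of the 43 windows, and in 1.56%, 0.387% and 0.791% of all. No window shown holds a motif of another factor, and in Ndufa11 and Ndufaf4 the NRF1 motif reads on both strands at once. The ETS windows are printed because Ndufaf8, Ndufs3 and Ndufaf1, 3 of the 4 genes higher in untreated KO cells, held the motif. The fourth, Ndufa2, had no window to search. The NRF1 windows are printed because none of their genes was called for the knockout alone, except Ndufs6 when library scaling was left out. Both choices were made with the calls known. The motif stands in capitals, and each window reads 5′ to 3′ on the gene's own strand. Ndufb6 holds its ETS motif, and Ndufa5, Ndufs5 and Ndufb4 their NRF1 motif, on the opposite strand.
Ndufaf8 ETS, chr11:120098904-120098933, + strand: ccggatgttcacgcgttcgactCCGGAAGa
Ndufs3 ETS, chr2:90904730-90904759, - strand: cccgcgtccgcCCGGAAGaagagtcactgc
Ndufaf1 ETS, chr2:119662835-119662864, - strand: gcgggaccacaaCCGGAAGcgtggcgaacc
Ndufb6 ETS, chr4:40279635-40279664, - strand: tcgtccttgttCTTCCGGtcccctccccta
Ndufb7 ETS, chr8:83566727-83566756, + strand: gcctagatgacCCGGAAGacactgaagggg
Ndufa5 NRF1, chr6:24527697-24527726, - strand: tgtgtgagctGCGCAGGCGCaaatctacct
Ndufa8 NRF1, chr2:36049349-36049378, - strand: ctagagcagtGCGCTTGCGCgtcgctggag
Ndufa11 NRF1, chr17:56717692-56717721, + strand: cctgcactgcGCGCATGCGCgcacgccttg
Ndufs5 NRF1, chr4:123718265-123718294, - strand: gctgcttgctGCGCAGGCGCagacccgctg
Ndufs6 NRF1, chr13:73328483-73328512, - strand: ccgccgactgctgtGCGCCTGCGCcggcac
Ndufb4 NRF1, chr16:37654371-37654400, - strand: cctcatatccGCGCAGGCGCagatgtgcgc
Ndufaf4 NRF1, chr4:24897960-24897989, + strand: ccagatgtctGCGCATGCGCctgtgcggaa

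A motif match describes these letters and shows no binding. Ndufv3 and Ndufaf8 had the largest fall and the largest rise of the 46 genes in untreated KO cells, and the exon-free stretch before each start is given for them. None of the 5 motifs lies whole inside either stretch.
Ndufv3, chr17:31519981-31520114, + strand: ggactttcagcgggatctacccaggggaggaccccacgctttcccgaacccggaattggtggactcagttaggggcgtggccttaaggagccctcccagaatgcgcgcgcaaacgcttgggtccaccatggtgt
Ndufaf8, chr11:120098732-120098927, + strand: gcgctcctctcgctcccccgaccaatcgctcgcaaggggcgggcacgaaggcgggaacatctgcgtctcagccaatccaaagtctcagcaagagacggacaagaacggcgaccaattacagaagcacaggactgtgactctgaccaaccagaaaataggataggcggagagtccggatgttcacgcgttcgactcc

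Library totals lay between 24.57 and 33.72 M estimated counts, and no gene of the 46 had fewer than 157 counts in a library. Levels are in CPM, counts relative to the effective size of the library. A gene without a name took 0.267% to 9.137% of each library and over 3% in 4 of them: KO acetate 2, replicates 1 and 2 of KO untreated, and WT untreated 1. Cd4, which marks helper T cells, Cd3e, which marks T cells of all kinds, and Il17a, which marks Th17 cells, were present in all 16 libraries. Several markers moved with the groups. In untreated KO cells Cd4 (-0.25), Cd3g (-0.45), Trac (-0.53), Il23r (-1.80), Cd8a (-1.001) and Cd8b1 (-0.55) were lower on the log2 scale and Ccr6 (0.62) was higher. With acetate Il17a was higher in WT (1.84) and KO (2.66), as was Il17f (0.92 and 1.42), and Cd3e was lower in both (-0.24 and -0.42). Trac (0.30), Il23r (1.64) and Cd8a (1.86) were higher with acetate in KO, and Cd8b1 in KO (1.05) and WT (0.52). All these markers called with acetate in KO were called without KO acetate 1 and 3 as well. Foxp3, a marker of regulatory T cells, spread from 2.02 to 16.3 CPM and was not called in these 3 comparisons. The part of these shifts in the results below was not tested. The B cell genes Ms4a1 and Cd79a and the myeloid genes Lyz2 and Itgam stayed at or below 1.90 CPM, and Cd8b1 lay between 4.62 and 15.9 CPM. Pdha1, a PDH subunit gene, averaged 247 ± 12.6, 225 ± 11.5, 259 ± 10.8 and 248 ± 13.1 CPM (SD, n = 4) in untreated WT and KO and then in acetate-treated WT and KO. The labels do not say which PDH gene or exon is floxed, so this level does not check the genotype. In RNA from whole cultures, fewer cells of a type and less RNA per cell cannot be told apart.

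Per kilobase of transcript, Ndufa4 was the most abundant of the 46 genes in WT untreated cells, at 278.9 CPM per kb, followed by the N module core gene Ndufv2 at 159.0 and Ndufc2 of the proximal arm at 156.8. The lowest were the assembly factor genes Ndufaf3 at 8.165 and Ndufaf6 at 9.39 CPM per kb, then Ndufb4 at 9.678 and Ndufb2 at 9.859. The 8 Ndufaf genes lay between 8.165 and 43.24 CPM per kb, and the nuclear core subunits described here between 43.03 for Ndufs7 and 159.0 for Ndufv2. The length used was the mean over a gene's annotated transcripts, which counts isoforms that these cells may not make.

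KO acetate libraries 1 and 3 stood apart for these genes, as the plot of list medians by library shows. In 38 of the 46 genes (82.6%) both libraries lay below both KO acetate 2 and KO acetate 4, an order held by 19.7% of all genes tested, and the opposite order was held by 0 of 46. The 8 exceptions were Ndufa9, Ndufs1, Ndufb3, Ndufa10, Ndufv1, Ndufaf1, Ndufaf4 and Ndufaf8. On the log2(CPM + 1) scale, the median difference of the 46 genes from the WT untreated mean was -0.375, -0.051, -0.297 and -0.015 in KO acetate 1, 2, 3 and 4. The same median lay between -0.049 and 0.062 in the other 12 libraries. Other lists moved with it: 75 cytosolic ribosomal protein genes stood at -0.273, 0.088, -0.242 and 0.014, and genes with transcripts under 1 kb at -0.117, 0.007, -0.117 and 0.011. Genes with transcripts of 3 kb or more stood at 0.077, -0.008, 0.047 and -0.026. The median transcript length of the 46 genes was 0.8495 kb, beside 2.109 kb for all genes tested. The part of RNA quality or transcript length in the values of libraries 1 and 3 was not tested. Comparisons that use KO acetate are therefore given with and without these 2 libraries, a choice made after seeing the data. The 2 were picked for low values of these same genes, so leaving them out raises most KO acetate values by construction. It also narrows the spread within that group, so rises called only without them are not independent of the choice.

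**Figure D1:**
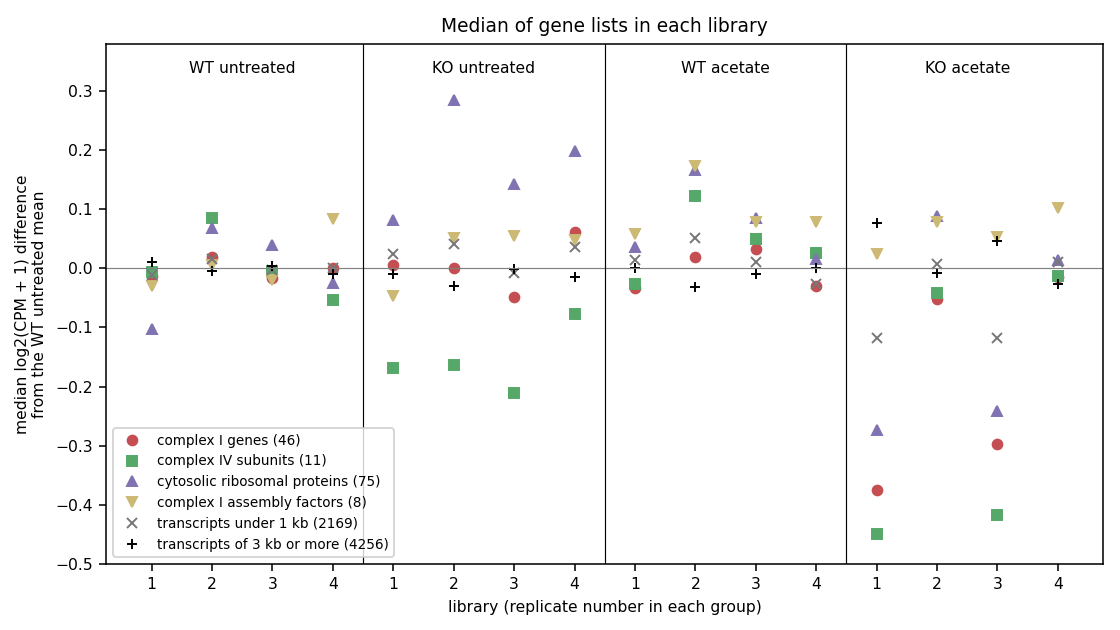
The y axis gives the median log2(CPM + 1) difference from the WT untreated mean and the x axis the 16 libraries by group, with a symbol for each gene list. Complex I genes, complex IV subunits and ribosomal protein genes sat low in KO acetate 1 and 3 (complex I at -0.375 and -0.297), and the 8 complex I assembly factors did not (0.025 and 0.053).

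The first question was how loss of PDH changed these genes. In untreated cells, 10 of 46 genes (21.7%) passed the edgeR quasi-likelihood test at an adjusted p under 0.05, beside 36.6% of all 14985 genes tested. Of these, 4 were higher in KO (background 18.0%) and 6 were lower (background 18.6%), and the median log2 fold change of the 46 was 0.02, beside 0.01 for all genes. Libraries of the 2 groups did not overlap for 7 genes higher in KO and 5 lower, beside 17.9% and 18.2% of all genes. KO acetate 1 and 3 enter this comparison through what the fit shares across groups, and without them 7 were higher (background 17.5%) and 7 lower (background 18.9%). With no scaling beyond library totals the split was 1 higher and 7 lower. Over all 14985 genes that fit also tilted, to 1914 higher and 3217 lower. Without the 4 libraries rich in the unnamed gene, edgeR called 2 lower, Ndufv3 (-0.48) and Ndufaf3 (-0.45), and 0 higher, with 2 higher at an unadjusted p under 0.05. Calls fell over all genes as well, from 2699 to 1577 higher and from 2782 to 1784 lower, of 15374 genes then tested. Ndufaf8 then stood at 0.37 (adjusted p = 0.0554). Leaving out single libraries gave 2 to 3 higher and 2 to 4 lower. By role, 1 N module gene rose and 2 fell, 1 Q module gene rose, 3 distal arm genes fell, and 2 assembly factor genes rose and 1 fell. No proximal arm gene was called.

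The second question was what acetate did in each genotype. In WT cells acetate changed 1 of 46 genes (2.17%, background 15.4%), which was lower (background 7.55%), and raised 0 of 46 (background 7.89%), with a median log2 fold change of 0.00. The WT libraries did not overlap for 3 genes higher and 2 lower with acetate, beside 10.6% and 10.7% of all genes. Of the 46, 2 were higher at an unadjusted p under 0.05, and DESeq2 called 1 gene higher. With KO acetate 1 and 3 left out the calls were again 0 higher (background 7.45%) and 1 lower (background 7.41%). In KO cells acetate changed 18 of 46 (39.1%, background 43.7%), of which 17 were lower (37.0%, background 21.6%) and 1 was higher (2.17%, background 22.1%). The median log2 fold change was -0.15, beside -0.01 for all genes, and the libraries did not overlap for 1 gene higher and 12 lower (background 19.0% and 18.7%). The 17 were 5 of 10 N module genes, 3 of 6 Q module genes, 4 of 9 proximal arm genes, 3 of 11 distal arm genes, Ndufa4 and 1 of 8 Ndufaf genes. Without KO acetate 1 and 3 the count became 7 lower (background 15.8%) and 4 higher (background 17.3%), and the median was -0.04. All 7 were among the 17: Ndufaf8, Ndufa7, Ndufa2, Ndufs7, Ndufs3, Ndufa10 and Ndufc1. Ndufaf6 was higher in both counts, and Ndufaf5, Ndufb6 and Ndufb1 joined it. Libraries 1 and 3 were the lowest of KO acetate for each of these genes, so leaving them out raises the values by construction. With all libraries but no scaling the split was 9 lower and 2 higher. Over all 14985 genes that fit tilted to 2085 lower and 4229 higher.

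**Figure D2:**
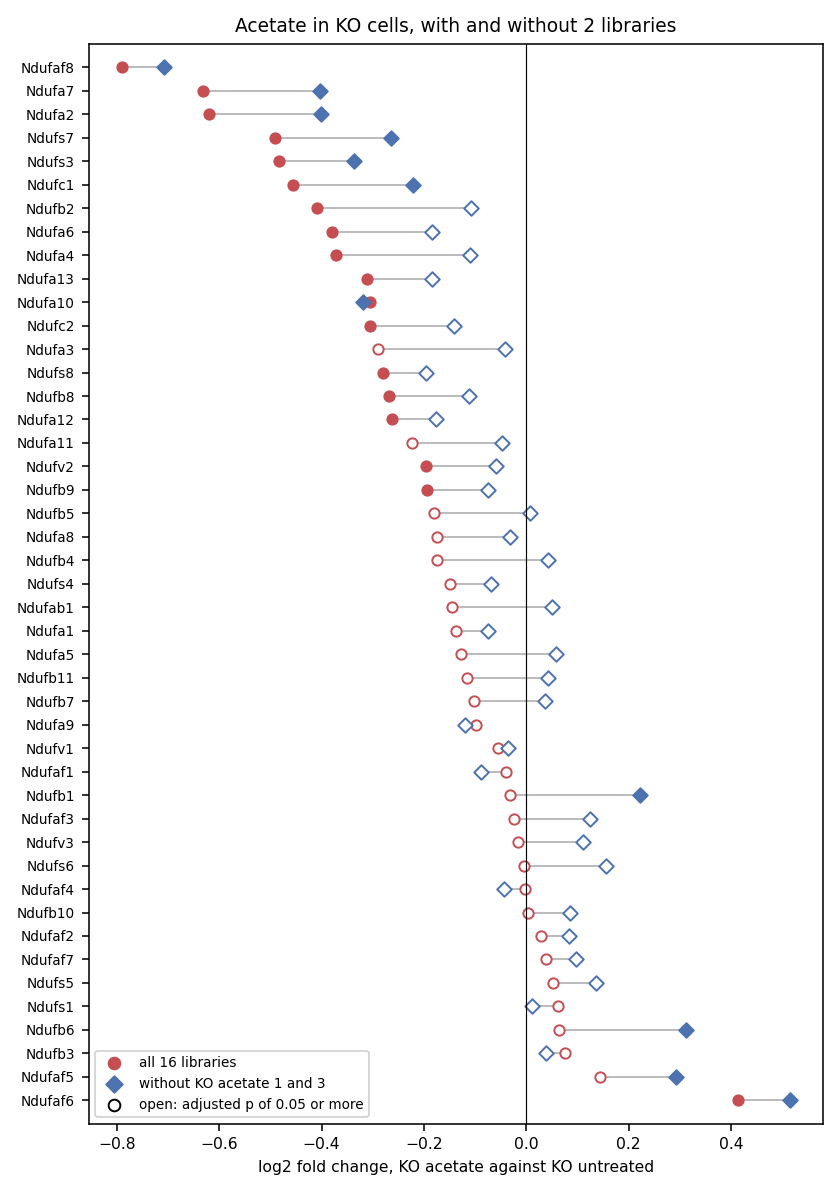
The x axis gives the log2 fold change of KO acetate against KO untreated for each gene drawn, from all 16 libraries (circles) and without KO acetate 1 and 3 (diamonds), with filled symbols for an adjusted p under 0.05. Filled symbols at the left fall from 17 to 7, with Ndufaf8 lowest in both, and those at the right go from 1 to 4.

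KO and WT cells under acetate differed in 4 of 46 genes (8.7%, background 1.0%), all lower in KO (background 0.514%), with 0 of 46 higher by edgeR (background 0.487%), by DESeq2 or at an unadjusted p under 0.05. The libraries did not overlap for 0 genes higher and 9 lower (background 4.5% and 4.86%). When KO acetate 1 and 3 were left out, edgeR called 0 of the 46 in this comparison (background 0.0% lower and 0.0267% higher), with 4 lower and 0 higher at an unadjusted p under 0.05, and the median moved from -0.19 to -0.03. KO acetate cells differed from WT untreated cells in 18 genes (39.1%, background 26.4%), 17 lower (37.0%, background 13.5%) and 1 higher (background 12.9%). The libraries did not overlap for 1 gene higher and 14 lower (background 14.2% each way). Without libraries 1 and 3, 2 were lower (Ndufv3 and Ndufa10, background 6.59%) and 2 higher (Ndufaf6 and Ndufaf5, background 6.37%). The acetate effect in KO minus that in WT, tested as an interaction, was called for 4 genes (8.7%, background 11.9%), below 0 in all 4 (background 5.54%) and above 0 in none (background 6.37%), nor in any by DESeq2 or at an unadjusted p under 0.05. These were Ndufaf8, Ndufc1, Ndufa2 and Ndufs3, and without libraries 1 and 3 Ndufaf8 alone was called (background 2.9% below and 3.65% above 0). The comparisons share libraries and are not independent of one another.

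The length of these transcripts was taken up in an offset for each library's trend against transcript length, an alternative chosen after seeing the data. With it, acetate in KO gave 14 lower (background 21.7%) and 2 higher (background 22.7%) of the 46, the 14 all among the 17, with Ndufa12, Ndufb9 and Ndufa4 no longer called. KO against WT gave 4 higher (background 17.9%) and 6 lower (background 19.6%) without acetate, and 0 higher (background 0.434%) and 3 lower (background 0.44%) with it. Acetate in WT gave 0 higher (background 8.16%) and 3 lower (background 7.98%), Ndufa8 and Ndufs8 beside Ndufa10. KO acetate against WT untreated gave 1 higher (background 13.2%) and 15 lower (background 14.6%), and the interaction 0 above (background 6.7%) and 4 below 0 (background 5.54%).

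**Figure D3:**
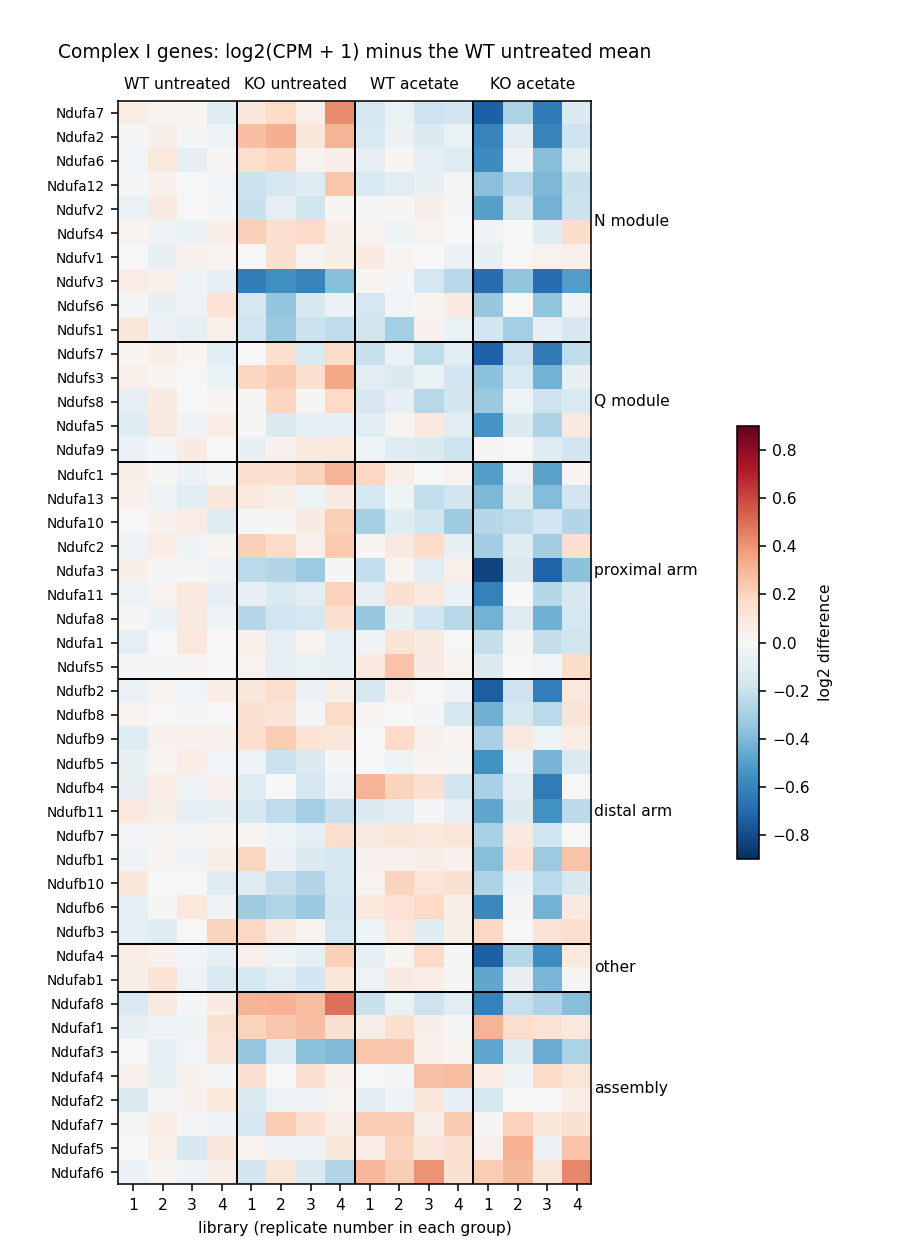
Each row is a complex I gene, grouped by module, each column 1 of the 16 libraries, and colour gives log2(CPM + 1) minus the WT untreated mean. Ndufv3 is low in all 8 KO libraries, Ndufaf8 is high in the 4 KO untreated libraries only, and KO acetate 1 and 3 are low across most subunit rows.

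In the N module, Ndufv3, a supernumerary subunit beside the NADH-binding site, had the largest difference between the genotypes. It read 55.4, 54.5, 51.4 and 50.2 CPM in WT untreated 1 to 4 and 34, 35.6, 34.6 and 40.4 CPM in KO untreated. With acetate it read 53.4, 52.5, 47.5 and 44.4 CPM in WT and 32.5, 41.0, 32.4 and 37.0 CPM in KO. All 8 KO libraries lay below all 8 WT libraries. Ndufv3 was lower in KO without acetate (log2 fold change -0.55 ± 0.08 SE, adjusted p = 5.34e-05), and no single library left out ended that call (-0.60 to -0.52). It was also lower in KO with acetate (-0.47 ± 0.08 SE, adjusted p = 0.0163). That call was lost without KO acetate 1 or without KO acetate 3 (-0.55 to -0.43 over all libraries left out), and without both the value was -0.35 ± 0.09 SE (adjusted p = 0.393). KO acetate stayed below WT untreated with all libraries (-0.57 ± 0.08 SE, adjusted p = 9.75e-05) and without libraries 1 and 3 (-0.44 ± 0.09 SE, adjusted p = 0.00565).

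Ndufs1, the largest core subunit and a carrier of iron-sulphur clusters, fell in untreated KO cells. It read 95.0, 85.4, 83.1 and 91.3 CPM in WT untreated and 78.0, 70.0, 77.3 and 75.5 CPM in KO untreated, with no overlap (-0.24 ± 0.07 SE, adjusted p = 0.0152). The call was lost without WT untreated 1 or without KO untreated 2 (-0.27 to -0.20). With acetate the genotypes overlapped, at 79.1, 71.6, 91.1 and 84.9 CPM in WT and 78.5, 71.5, 84.2 and 79.9 CPM in KO.

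Ndufv1, the core subunit that binds NADH and flavin, lay between 76.2 and 88.6 CPM over the 16 libraries and was called in no comparison. Ndufv2, its iron-sulphur partner, read 145, 160.5, 151 and 149 CPM in WT untreated and 132, 142, 135 and 152 CPM in KO untreated, where the groups overlapped. It read 150.5, 153, 157 and 150.0 CPM in WT acetate and 108, 137, 113 and 132 CPM in KO acetate, all 4 below WT acetate. Ndufv2 was lower in KO with acetate (-0.32 ± 0.07 SE, adjusted p = 0.0349), and without KO acetate 1 and 3 the value was -0.18 ± 0.07 SE (adjusted p = 0.53). Leaving out KO acetate 1, KO acetate 3 or any WT acetate library also ended the call (-0.38 to -0.26). KO acetate was below WT untreated as well (-0.31 ± 0.07 SE, adjusted p = 0.0036, and -0.18 with adjusted p = 0.0937 without libraries 1 and 3). The fall with acetate in KO (-0.20 ± 0.07 SE, adjusted p = 0.0297) was lost in 4 of 8 fits with a library left out, for KO acetate 1 and 3 and KO untreated 2 and 4 (-0.26 to -0.14), and was -0.06 without KO acetate 1 and 3 together.

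Ndufa2 and Ndufa7, small supernumerary subunits, fell most among N module genes under acetate in KO cells. Ndufa2 read 37.5, 38.9, 36.8 and 36.2 CPM in WT untreated, 45.3, 46.9, 40.2 and 46.4 in KO untreated, 33.8, 36.0, 34.2 and 35.9 in WT acetate, and 24.5, 34.9, 24.2 and 32.8 in KO acetate. All KO untreated libraries were above, and all KO acetate libraries below, those of WT untreated. Ndufa2 was higher in untreated KO than WT (0.26 ± 0.10 SE, adjusted p = 0.0407), a call that held in 1 of 8 fits with a library left out, the one without KO untreated 3 (0.24 to 0.31 over the 8). It fell with acetate in KO (-0.62 ± 0.10 SE, adjusted p = 4.21e-05), also without libraries 1 and 3 (-0.40 ± 0.07 SE, adjusted p = 0.000602). The interaction was -0.52 ± 0.14 SE (adjusted p = 0.0172), and without those libraries -0.30 ± 0.09 SE (adjusted p = 0.0668).

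Ndufa7 read 56.9, 55.2, 54.9 and 50.3 CPM in WT untreated, 58.3, 61.7, 56.0 and 73.3 in KO untreated, 48.9, 52.0, 47.6 and 48.0 in WT acetate, and 32.3, 44.5, 34.6 and 49.7 in KO acetate. KO acetate did not overlap KO untreated. It fell with acetate in KO (-0.63 ± 0.11 SE, adjusted p = 0.000179, and -0.40 ± 0.10 SE with adjusted p = 0.00401 without libraries 1 and 3). Ndufa6 (-0.38 ± 0.09 SE) and Ndufa12 (-0.26 ± 0.08 SE) fell in the same comparison with all libraries but were not called without those 2. Ndufs4 and Ndufs6, supernumerary subunits of the same module, were called in no comparison of the main fit. Ndufs4 lay higher in untreated KO than WT without overlap (0.15 ± 0.06 SE, edgeR adjusted p = 0.0524), and was called there without KO acetate 1 and 3. Without scaling Ndufs6 was called lower in untreated KO.

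In the Q module, Ndufs3, a core subunit of the arm that leads electrons to ubiquinone, moved up with the knockout and down with acetate. It read 54.2, 53.3, 52.3 and 50.3 CPM in WT untreated and 60.1, 61.9, 58.1 and 67.2 in KO untreated, then 48.8, 47.8, 50.3 and 46.5 in WT acetate and 40.4, 47.5, 38.8 and 50.2 in KO acetate. Each KO untreated library exceeded each library of the other 3 groups. Ndufs3 was higher in untreated KO than WT (0.23 ± 0.07 SE, adjusted p = 0.0179), a call lost without WT untreated 4 or without KO untreated 4 (0.19 to 0.27). It fell with acetate in KO (-0.48 ± 0.07 SE, adjusted p = 3.64e-05, and -0.34 ± 0.07 SE with adjusted p = 0.00148 without KO acetate 1 and 3). The interaction was -0.36 ± 0.10 SE (adjusted p = 0.0294), and -0.22 ± 0.09 SE (adjusted p = 0.163) without them. That call was lost in 6 of 16 fits with a library left out, those without WT untreated 3 or 4, KO untreated 4, WT acetate 3, KO acetate 1 or KO acetate 3 (-0.43 to -0.30).

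Ndufs7, which carries the last iron-sulphur cluster before ubiquinone, read 37.9, 39.1, 37.97 and 34.9 CPM in WT untreated and 37.5, 41.4, 33.9 and 42.2 in KO untreated, with overlap. It read 32.4, 36.0, 31.8 and 35.0 CPM in WT acetate and 22.2, 32.6, 23.7 and 31.8 in KO acetate, the lowest of the 4 groups in libraries 1 and 3. It fell with acetate in KO (-0.49 ± 0.11 SE, adjusted p = 0.00102, and -0.27 ± 0.09 SE with adjusted p = 0.0317 without those libraries). KO acetate was below WT untreated (-0.44 ± 0.11 SE, adjusted p = 0.00517), and without the 2 libraries the value was -0.22 (adjusted p = 0.117).

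Ndufs8, another iron-sulphur core subunit, lay at 55.2 to 62.3 CPM in WT untreated, 59.1 to 67.2 in KO untreated, 49.2 to 55.8 in WT acetate and 46.5 to 56.7 in KO acetate. It fell with acetate in KO (-0.28 ± 0.07 SE, adjusted p = 0.00273), and was not called without libraries 1 and 3. The supernumerary genes Ndufa5 and Ndufa9 of this module were not called in any comparison.

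In the proximal arm, Ndufa10 was the single gene of the 46 that acetate lowered in both genotypes in the main fit of all 16 libraries. It read 138, 141, 144 and 127 CPM in WT untreated and 111, 127, 122 and 110.1 in WT acetate, a fall of 0.23 on the log2 scale (SE 0.06, adjusted p = 0.0198) although WT acetate 2 lay just above WT untreated 4. In KO it read 136, 138, 145 and 159.9 CPM untreated and 115, 117, 121 and 115 CPM with acetate, with no overlap (-0.31 ± 0.06 SE, adjusted p = 0.000627). The value in KO was -0.32 ± 0.08 SE (adjusted p = 0.00596) without KO acetate 1 and 3, so Ndufa10 did not rest on them. In WT the call was lost without WT untreated 2 or 3 or without WT acetate 1 or 4 (-0.27 to -0.19), and also without scaling. Its interaction was -0.08 ± 0.09 SE (adjusted p = 0.616), so a difference between the 2 falls was not shown. With the length offset Ndufs8 was called lower with acetate in both genotypes as well.

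Ndufc1, a small membrane subunit, read 23.3, 22.4, 21.4 and 22.2 CPM in WT untreated, 24.9, 24.8, 25.8 and 27.8 in KO untreated, 25.6, 23.3, 22.4 and 22.8 in WT acetate, and 15.5, 21.6, 15.7 and 22.7 in KO acetate. It fell with acetate in KO (-0.46 ± 0.10 SE, adjusted p = 0.00158, and -0.22 ± 0.08 SE with adjusted p = 0.044 without libraries 1 and 3). Its interaction was -0.53 ± 0.15 SE (adjusted p = 0.0244), lost without WT untreated 3 or KO acetate 3 (-0.63 to -0.44), and -0.30 ± 0.10 SE (adjusted p = 0.102) without KO acetate 1 and 3. Ndufa13 (-0.31) and Ndufc2 (-0.30) also fell with acetate in KO in the full set and were not called without the 2 libraries. Ndufa3 and Ndufa8 were lower in KO acetate than in WT untreated (-0.50 and -0.28) and likewise not called without them.

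In the distal arm, Ndufb11, Ndufb10 and Ndufb6 fell in untreated KO cells. Ndufb11 read 75.6, 73.6, 67.2 and 67.8 CPM in WT untreated and 64.0, 60.4, 57.4 and 61.2 in KO untreated, with no overlap (-0.23 ± 0.08 SE, adjusted p = 0.0289). It read 64.8, 66.4, 70.2 and 67.4 CPM in WT acetate and 51.1, 64.7, 48.4 and 60.2 in KO acetate, and KO acetate was below WT untreated (-0.34 ± 0.08 SE, adjusted p = 0.00363) with all libraries but not without KO acetate 1 and 3. Ndufb10 read 54.0, 50.6, 50.7 and 46.6 CPM in WT untreated and 46.8, 43.5, 41.8 and 45.6 in KO untreated, where 1 KO library exceeded 1 WT library (-0.18 ± 0.06 SE, adjusted p = 0.0314). With acetate it read 51.6, 58.1, 54.5 and 55.6 CPM in WT and 41.5, 48.6, 42.4 and 45.6 in KO, all 4 below WT (-0.30 ± 0.06 SE, adjusted p = 0.0307, and -0.23 with adjusted p = 0.485 without libraries 1 and 3).

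These 3 calls in untreated cells each depended on single libraries. Ndufb11 lost its call without WT untreated 1 or 2 or KO untreated 2, 3 or 4 (-0.25 to -0.20), and Ndufb10 without WT untreated 1, 2 or 3 or KO untreated 2 or 3 (-0.22 to -0.15). Ndufb6, at 54.4 to 61.5 CPM in WT untreated and 45.4 to 50.8 in KO untreated, had the weakest call (-0.28 ± 0.11 SE, adjusted p = 0.0494) and lost it without any 1 of the 8 libraries (-0.31 to -0.25). With acetate Ndufb6 lay at 59.6 to 65.0 CPM in WT and at 38.1, 56.7, 42.6 and 60.9 CPM in KO. Without KO acetate 1 and 3, its lowest libraries of that group, it was called higher with acetate in KO cells (0.31 ± 0.07 SE, adjusted p = 0.00259). With them the value was 0.07 and not called, and leaving them out raises it by construction. Ndufb2, Ndufb8 and Ndufb9 fell with acetate in KO (-0.41, -0.27 and -0.19) and were not called without KO acetate 1 and 3. With 1 library left out, Ndufb8 lost its call without KO acetate 1, Ndufb2 without KO untreated 2 or KO acetate 1 or 3, and Ndufb9 in 5 of 8 fits, when KO acetate 1 or 3 or any KO untreated library but the fourth was missing.

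Ndufa4, which is now counted as a subunit of complex IV, read 141, 139, 133 and 128 CPM in WT untreated and 139.6, 131, 128 and 157 in KO untreated. It read 127, 138, 153 and 134 CPM in WT acetate and 80.7, 113, 91.5 and 144 CPM in KO acetate, the widest spread of its 4 groups. Its fall with acetate in KO (-0.37 ± 0.13 SE, adjusted p = 0.0321) was lost in 5 of 8 fits with a library left out, those without KO acetate 1, 2 or 3 and those without KO untreated 1 and 4 (-0.55 to -0.26). Ndufab1, the acyl carrier protein of mitochondrial fatty acid synthesis, was called in no comparison. It read 88.8, 93.5, 83.1 and 78.0 CPM in WT untreated, 76.6, 80.1, 75.95 and 91.8 in KO untreated, 83.0, 90.3, 89.8 and 86.3 in WT acetate, and 61.5, 81.6, 64.1 and 86.2 in KO acetate, low in libraries 1 and 3 of the last group.

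Among the 8 assembly factors, Ndufaf8, the partner of Ndufaf5, changed most. It read 8.42, 9.97, 9.26 and 9.94 CPM in WT untreated and 11.8, 11.9, 11.6 and 13.6 in KO untreated, then 8.03, 8.97, 8.11 and 8.67 in WT acetate and 5.79, 7.999, 7.55 and 6.96 in KO acetate. KO libraries were above all WT libraries without acetate and below all WT libraries with it. Ndufaf8 rose with the knockout in untreated cells (0.38 ± 0.10 SE, adjusted p = 0.0076) and fell with acetate in KO (-0.79 ± 0.11 SE, adjusted p = 8e-06), and no single library left out ended either call. Its interaction was -0.64 ± 0.15 SE (adjusted p = 0.00906). Without KO acetate 1 and 3 the fall was -0.71 ± 0.12 SE (adjusted p = 0.000312) and the interaction -0.55 ± 0.15 SE (adjusted p = 0.0409), so both calls held. The difference of KO acetate from WT untreated (-0.41 ± 0.11 SE, adjusted p = 0.00777) did not hold without them (-0.33, adjusted p = 0.0792).

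Ndufaf3, which works on the Q module with Ndufaf4, was lower in KO in both conditions. It read 7.98, 7.48, 7.88 and 8.75 CPM in WT untreated and 6.10, 7.32, 5.97 and 5.84 in KO untreated (-0.34 ± 0.12 SE, adjusted p = 0.0273). It read 9.72, 9.64, 8.31 and 8.16 CPM in WT acetate and 5.53, 7.36, 5.60 and 6.39 in KO acetate (-0.53 ± 0.12 SE, adjusted p = 0.035). All 8 KO libraries lay below all 8 WT libraries. The untreated call was lost without WT untreated 4 or KO untreated 1, 3 or 4 (-0.42 to -0.30). The call with acetate was lost without any WT acetate library or KO acetate 1 or 3 (-0.62 to -0.48), and was -0.39 ± 0.14 SE (adjusted p = 0.53) without both. Ndufaf4 was called in no comparison, at 38.3, 35.6, 38.3 and 36.9 CPM in WT untreated, 41.1, 37.1, 41.2 and 38.3 in KO untreated, 37.2, 36.8, 45.0 and 45.2 in WT acetate, and 39.1, 36.2, 41.8 and 40.3 in KO acetate.

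Ndufaf6, a factor of early Q module assembly, was the gene of the 46 that rose with acetate in KO. It read 8.90, 11.01, 9.17 and 8.27 CPM in KO untreated and 12.1, 12.6, 11.03 and 14.1 in KO acetate (0.41 ± 0.10 SE, adjusted p = 0.00283), and no single library left out ended the call. Without KO acetate 1 and 3 the rise was 0.52 ± 0.12 SE (adjusted p = 0.00353). In WT it read 9.77, 10.3, 9.93 and 10.7 CPM untreated and 12.7, 12, 13.8 and 11.3 with acetate, with no overlap but an adjusted p of 0.0546 (0.29 ± 0.10 SE). The interaction was 0.12 ± 0.14 SE (adjusted p = 0.649), so a difference between genotypes was not shown. KO acetate was above WT untreated (0.29 ± 0.10 SE, adjusted p = 0.0392), a call that held in 1 of 8 fits with a library left out, the one without KO acetate 3 (0.23 to 0.34 over the 8).

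Ndufaf1, which builds the membrane arm together with Ecsit and Acad9, read 20.0, 20.5, 20.4 and 23.2 CPM in WT untreated and 24.2, 25, 25.5 and 23.2 in KO untreated. It was higher in KO without acetate (0.22 ± 0.07 SE, adjusted p = 0.0185), and the call was lost without WT untreated 1, 2 or 3 or KO untreated 3 (0.20 to 0.27). It read 21.8, 23.3, 21.8 and 20.7 CPM in WT acetate and 26.2, 23.5, 23.1 and 22.5 in KO acetate, which overlapped.

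Ndufaf2, Ndufaf5 and Ndufaf7 were called in no comparison with all 16 libraries. Ndufaf2, a late chaperone of the N module, read 19.5, 21.2, 21.9 and 22.9 CPM in WT untreated, 19.5, 20.7, 20.9 and 21.8 in KO untreated, 19.8, 20.8, 23.0 and 20.2 in WT acetate, and 19.2, 21.4, 21.4 and 22.5 in KO acetate. Ndufaf5, which hydroxylates Ndufs7, read 15.4, 15.9, 13.8 and 16.6 CPM in WT untreated, 15.8, 14.9, 14.9 and 16.6 in KO untreated, 16.1, 17.9, 16.6 and 17.0 in WT acetate, and 15.9, 19.4, 14.8 and 18.6 in KO acetate. Ndufaf7, a methyltransferase of complex I assembly, read 20.6, 21.8, 20.4 and 20.1 CPM in WT untreated, 18.6, 24.5, 23.1 and 21.6 in KO untreated, 24.4, 24.4, 21.5 and 24.6 in WT acetate, and 20.9, 24.1, 22.3 and 22.8 in KO acetate. The groups of all 3 genes overlapped in each of the 5 comparisons of 2 groups, and without KO acetate 1 and 3 Ndufaf5 was higher in KO acetate than in KO untreated (0.29 ± 0.09 SE, adjusted p = 0.0213).

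**Figure D4:**
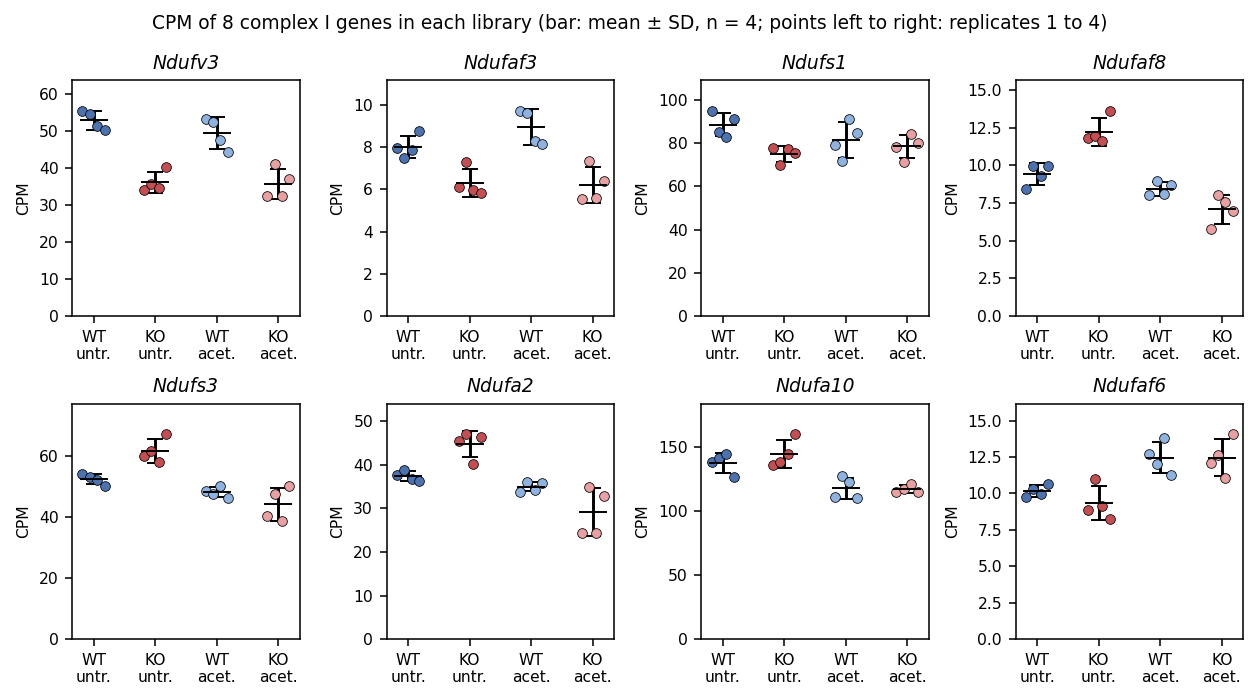
Each panel gives the CPM of 1 gene in the 16 libraries (points, replicates 1 to 4 from left to right) with the group mean ± SD (n = 4). Ndufv3 and Ndufaf3 are lower in both KO groups, Ndufaf8, Ndufs3 and Ndufa2 are high in KO untreated alone, Ndufa10 is lower in both acetate groups, and Ndufaf6 reads 11.03 to 14.1 CPM in the acetate groups and 8.27 to 11.01 CPM in the untreated ones.

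Read against the motif windows, 7 genes held the NRF1 motif. In the main fit 0 of the 7 was called for the knockout in untreated cells or for acetate in KO. Without scaling Ndufs6 was called lower for the knockout, and with the length offset Ndufs5 was called higher with acetate in KO. Of the 34 other genes with a window, 3 were higher and 5 lower for the knockout, and 15 were lower for acetate. Over all genes tested the shares were 18.0% higher and 18.6% lower for the knockout and 21.6% lower for acetate in KO. Of the 5 genes with the ETS motif, Ndufaf8, Ndufs3 and Ndufaf1 were higher and Ndufb6 was lower in untreated KO cells, and Ndufaf8 and Ndufs3 fell with acetate. The other 36 genes with a window had 0 higher and 4 lower for the knockout. The 7 and 5 genes are too few to compare with the rest by counts, and no test was run. The windows were printed with these calls known, so this reading is not independent of them.

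Other genes of the pathway gave a mixed picture. Among 11 assembly factors with other names, the knockout in untreated cells raised Tmem70 (0.42 ± 0.08 SE) and lowered Aifm1 (-0.30 ± 0.06 SE), the gene of apoptosis-inducing factor, which helps import subunits. With acetate in KO, Aifm1 was higher by 0.36 ± 0.06 SE and Tmem70 lower (-0.29 ± 0.08 SE), Ecsit was higher (0.25) and Tmem186 (-0.30) and Dmac2 (-0.24) were lower. Without KO acetate 1 and 3, Aifm1 (0.28), Ecsit (0.35) and Tmem186 (-0.33) were still called, and Tmem70 (-0.19, adjusted p = 0.11) and Dmac2 (-0.17, adjusted p = 0.125) were not. In WT acetate raised Timmdc1 (0.23). Of the 7 mitochondrially encoded subunits, mt-Nd6 was higher in untreated KO cells (0.59 ± 0.21 SE), a call lost with the length offset (adjusted p = 0.0891). With all libraries 5 were lower with acetate in KO, beside 21.6% of all genes: mt-Nd3 (-1.33 ± 0.47 SE), mt-Nd4 (-0.69 ± 0.14 SE), mt-Nd2 (-0.49), mt-Nd4l (-0.47) and mt-Nd5 (-0.45). That count was 2 without KO acetate 1 and 3, beside 15.8% of all genes, with mt-Nd4 (-0.52) and mt-Nd4l still lower. For each of the 5, libraries of KO untreated and KO acetate overlapped. The gene mt-Nd3 lay at 119.5 to 451.2 CPM in KO untreated and at 63.43 to 184.3 CPM in KO acetate. Libraries made from poly(A) RNA and reads shared with nuclear copies limit these values.

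Regulators of respiratory chain genes were also followed. Of 8 tested, the knockout in untreated cells lowered Ppargc1b (-0.89 ± 0.16 SE), Esrra (-0.67 ± 0.10 SE) and Yy1 (-0.17 ± 0.05 SE), and raised Pprc1 (0.30 ± 0.07 SE) and Gabpb1 (0.28 ± 0.06 SE). Of all genes, 18.6% were lower and 18.0% higher. Esrra encodes ERRα, and Ppargc1b and Pprc1 encode coactivators of the PGC-1 family. Acetate in KO moved all 5 the other way, Esrra by 1.04 ± 0.10 SE, Ppargc1b by 0.90 ± 0.16 SE, Yy1 by 0.26, Pprc1 by -0.46 and Gabpb1 by -0.24, with the same counts of 3 higher and 2 lower without KO acetate 1 and 3. The shares over all genes were 22.1% higher and 21.6% lower, and 17.3% and 15.8% without those libraries. Nrf1, Gabpa and Tfam were called in no comparison. For the other complexes, calls in untreated KO cells were 0 higher and 1 lower of 8 complex II genes, 1 and 3 of 9 for complex III, 0 and 4 of 11 for complex IV and 0 and 3 of 15 for complex V, beside 18.0% and 18.6% of all genes. The corresponding calls with acetate in KO were 1 and 4, 2 and 2, 0 and 1, and 3 and 4, beside 22.1% and 21.6%. With KO acetate 1 and 3 left out they were 1 and 2, 2 and 1, 4 and 0, and 3 and 1, beside 17.3% and 15.8%. The 4 complex IV genes then higher were Cox4i1 (0.20), Cox6b1 (0.29), Cox7a2 (0.24) and Cox8a (0.28). Complex IV subunits also sat low in KO acetate 1 and 3, so leaving these out raises KO acetate by construction.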

How the data were processed

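RNA sequencing of Th17 cells gave 16 libraries in 4 groups of 4. The deposited table holds estimated counts for each gene, all of them whole. Salmon, DESeq2 and DESeq are named, per the submitters' processing notes, with no version, and genome build and annotation were not given in the sources used here. Symbols were matched by Ensembl identifier, and those of 235 genes were brought up to date by RefSeq synonyms. Transcript lengths, pseudogene status and promoter windows came from GENCODE M21 and RefSeq tables of GRCm38. The 350 identifiers without a name stayed in the fit.

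Tests used R 4.3.3 and edgeR 4.0.16 with TMM scaling, filterByExpr, the robust quasi-likelihood F test, 1 fit of all 16 libraries and Benjamini-Hochberg adjustment over 14985 genes. The common biological coefficient of variation was 0.144. SE is the log2 fold change divided by the root of F. A gene was called, and described as having risen or fallen, at an adjusted p under 0.05. The fit was tested on simulated data with 200 changed genes. CPM uses TMM-scaled library sizes. Library medians use log2(CPM + 1). Alternatives were DESeq2 1.42.0, other scalings, filters and designs, and left-out libraries. 2 were chosen after seeing the data: leaving out KO acetate 1 and 3, and an offset for a lowess trend (span 0.3) against transcript length. The members and lists were chosen with earlier results of these data known. Values by library are given for the 4 called genes with the smallest adjusted p per direction and comparison, the Ndufaf genes and the core subunits, some as ranges and 1 not reported here (counts over the 46 include it, figures do not draw it), and for Ndufa4; further genes were named after their values were seen.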

Additional observations from a re-analysis of the deposited data

Results flagged for a closer look

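In 7 of 184 groups of 4 libraries (3.8%), 1 library lay far from the other 3 by Dixon's criterion at 95%, and chance gives about 1 in 20. KO untreated 4 was highest for Ndufa12 at 118.5 CPM, Ndufa11 at 34.08 CPM and Ndufaf8 at 13.6 CPM. KO untreated 1 was highest for Ndufs5 at 48.85 CPM, and WT untreated 1 was lowest for Ndufb9 at 61.96 CPM. WT acetate 3 was lowest for Ndufaf7 at 21.53 CPM and highest for Ndufb1 at 66.05 CPM, where the other 3 libraries read 64.9 CPM.

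The acetate effect differed between KO and WT cells by the interaction test for Ndufaf8 (-0.636 on the log2 scale), Ndufc1 (-0.53), Ndufa2 (-0.524) and Ndufs3 (-0.364). Of these, Ndufaf8 alone was called without KO acetate 1 and 3.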

How the results depend on the processing

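No called gene reversed under any setting run. Of 55 calls of a gene in a comparison, 55 held with DESeq2, 54 with DESeq2 size factors and with no filter on low counts, 49 with the length-trend offset, 34 without scaling and 23 without KO acetate 1 and 3. The numbers below are genes called among the 46. For KO against WT without acetate, 4 higher became 1 without scaling, 7 without KO acetate 1 and 3, 8 with only the groups compared and 0 without the 4 libraries over 3% unnamed reads; 6 lower became 2 without those 4 (Ndufv3 and Ndufaf3). For acetate in KO, 1 higher became 2 without scaling, 2 with the length offset and 4 without KO acetate 1 and 3; 17 lower became 9 without scaling and 7 without those 2 libraries. For acetate in WT, 0 higher became 1 with DESeq2 and 1 with only the groups compared; 1 lower became 0 without scaling and 3 with the length offset. For KO against WT with acetate, 4 lower became 2 without scaling, 8 with DESeq2, 8 without the 4 high-share libraries, and 0 with only the groups compared or without KO acetate 1 and 3. For KO acetate against WT untreated, 1 higher became 2 without KO acetate 1 and 3 and 0 without the high-share libraries; 17 lower became 11 without scaling and 2 without KO acetate 1 and 3. The interaction's 4 became 1 without them. The cause was not tested. Over all genes, KO against WT with acetate gave 73 higher and 77 lower, but 324 and 502 with DESeq2, 182 and 226 with the replicate block, 213 and 322 without the high-share libraries, 28 and 50 without scaling, 13 and 3 with only the groups compared, and 4 and 0 without KO acetate 1 and 3. Removing the scaling moved the median of all genes for acetate in KO from -0.01 to 0.10. Calls over all genes there went from 3314 to 4229 higher and from 3236 to 2085 lower. For KO acetate against WT untreated they went from 1935 to 1911 higher and from 2019 to 1254 lower.

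Leaving out each library in turn gave 2 to 3 higher and 2 to 4 lower for KO against WT without acetate, 1 higher and 12 to 21 lower for acetate in KO, 0 to 1 lower for acetate in WT, 0 to 11 lower for KO against WT with acetate, 0 to 1 higher and 11 to 24 lower for KO acetate against WT untreated, and 2 to 9 for the interaction. The replicate numbers did not meet the criterion for pairing, a correlation above 0.1 in every same-numbered pair: 9 of 24 passed it (range -0.084 to 0.229), and 12 of 24 matched best with their own number. Between KO untreated and KO acetate all 4 did, at 0.086, 0.164, 0.165 and 0.136, a hint from the data, not the design. The replicate block changed 1 lower to 2 for acetate in WT and ended none of the 55 calls. The lowest count behind any member in a library was 157.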
